A study of Mus musculus with 1646 samples.

Results

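Genes of the complement system were followed through the stromal cells of the mouse colon. They were *C3*, *C4b*, *C1ra*, *C1s1*, *C7*, *Cfb*, *Cd55*, *Cd59a* and *Serping1*, and they were taken as the rows of the colon count table whose Ensembl identifier carries that symbol in the GENCODE vM21 annotation. All 9 were found among the 46517 genes of the table. Complement genes as a group were chosen with earlier results of these data known, but the rule used no measured value.

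The data are SmartSeq2 libraries of 1646 single cells, each from 1 sorted cell, from male mice aged 10 to 20 weeks. The mice carried a fluorescent reporter under the promoter of *Pdgfrb* (PdgfrbGFP, 761 cells on 4 plates), *Acta2* (Acta2GFP, 567 cells on 2 plates), *Pdgfra* (PdgfraGFP, the remaining cells, on 2 plates) or *Cspg4* (Cspg4dsRED, 91 cells on 1 plate), all on a C57Bl6/J background, and sorted cells were positive for a mesenchymal marker and negative for CD31. Elastase was added to the dissociation of Acta2GFP tissue only, so line, reporter and dissociation cannot be told apart there. No treatment was given, and the labels name no mouse, so each line counted as 1 sample and p-values measure only the spread between these lines.

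The labels give each cell 1 of 8 cluster numbers. The study reads clusters 7, 5, 1, 6 and 2 as fibroblasts, in that order from the base of the crypt to its apex under the surface epithelium, cluster 3 as vascular smooth muscle cells (SMC), cluster 4 as pericytes, the contractile cells of capillaries, and cluster 8 as interstitial SMC. There were 1307 fibroblasts, and the other cells (clusters 3, 4 and 8) are called mural here. The study drew the clusters from the same counts, so tests between clusters are not independent of them. A level here is the count of a gene per 500000 gene counts of a cell, averaged over the cells of a cluster within a line. Means ± SD are taken over lines, each line needing 10 cells or more of the cluster to enter. Where groups of lines are said not to overlap, or plates to go the same way, the share of all genes doing so was not counted.

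Complement is a cascade of plasma and tissue proteins that marks microbes and damaged cells for uptake or lysis. In the classical pathway the proteases C1r and C1s, bound to the recognition molecule C1q, cleave C4 and C2, and the resulting enzyme cleaves C3, which is the point where all pathways meet. Factor B, encoded by *Cfb*, forms the C3-cleaving enzyme of the alternative pathway, and C7 is a subunit of the membrane attack complex. Host cells are protected by C1 inhibitor (*Serping1*), which inactivates C1r and C1s, by decay-accelerating factor (*Cd55*), which dissociates the C3-cleaving enzymes, and by CD59 (*Cd59a*), which blocks the last step of the membrane attack complex. The liver makes most plasma complement, and stromal cells of many tissues make some of it locally.

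Promoter sequences were matched by symbol for 6 of the 9 genes in RefSeq (GRCm38.p6), in windows of 300 bases from 250 before the transcription start onwards. Those of *C3* and *C7*, which had their highest levels in the same clusters, and of *C1ra*, which was spread over all fibroblasts, are printed 5′ to 3′ along the gene, each on its minus or plus strand as stated. Capitals mark matches to the C/EBP motif TTGCNNAA or the STAT motif TTCNNNGAA on either strand. The *C3* window is chr17:57228087-57228386 on the minus strand, the *C7* window is chr15:5063724-5064023 on the minus strand and the *C1ra* window is chr6:124512371-124512670 on the plus strand.
C3: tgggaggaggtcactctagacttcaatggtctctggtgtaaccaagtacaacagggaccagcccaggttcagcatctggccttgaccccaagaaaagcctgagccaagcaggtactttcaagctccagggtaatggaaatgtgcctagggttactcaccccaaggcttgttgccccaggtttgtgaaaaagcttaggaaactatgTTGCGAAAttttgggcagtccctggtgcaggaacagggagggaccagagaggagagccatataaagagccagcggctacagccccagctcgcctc
C7: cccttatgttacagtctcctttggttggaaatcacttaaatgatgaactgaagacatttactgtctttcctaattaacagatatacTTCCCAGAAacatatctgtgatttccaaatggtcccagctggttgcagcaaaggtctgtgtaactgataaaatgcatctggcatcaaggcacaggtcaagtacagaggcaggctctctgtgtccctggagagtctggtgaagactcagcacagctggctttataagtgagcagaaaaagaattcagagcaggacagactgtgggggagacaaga
C1ra: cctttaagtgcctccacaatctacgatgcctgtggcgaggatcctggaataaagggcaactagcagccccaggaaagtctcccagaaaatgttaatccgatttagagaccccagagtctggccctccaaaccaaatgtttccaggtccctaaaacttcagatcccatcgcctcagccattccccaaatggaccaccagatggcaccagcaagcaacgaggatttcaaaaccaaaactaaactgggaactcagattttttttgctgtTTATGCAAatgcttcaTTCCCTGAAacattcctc

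*C3* held a C/EBP match at positions -45 to -38 relative to the RefSeq start, which is counted as 0. *C7* held a STAT match at -164 to -156. *C1ra* held both, at 16 to 23 (C/EBP) and at 32 to 40 (STAT). The RefSeq start of *C1ra* lies inside the gene as GENCODE gives it (from 124512405), so both matches and most of its window are inside that gene, and the RefSeq start of *C7* lies outside its GENCODE gene. A C/EBP match was also in 1 of the 2 windows of *C1s1*, whereas *Cd55* and *Cd59a* held no match to these motifs, and no window of a member held the kappaB motif. Among all 32851 windows of the table, 10.8% held a C/EBP match, 8.3% a STAT match and 8.46% a kappaB match. A match is a run of letters and says nothing of binding.

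The total over genes was 47598 to 1494292 counts in a cell, and its median was highest in PdgfraGFP (322654), followed by PdgfrbGFP (296654), Acta2GFP (170222) and Cspg4dsRED (113721). The cluster labels held against their markers: the summed level of *Pdgfra*, *Col1a1*, *Lum*, *Dcn* and *Cd34* was 5404 to 7005 by line in fibroblasts and 1099 or less in mural cells, and that of 6 mural markers was 265.2 or less in fibroblasts and 6090 to 8260 in mural cells. Among the fibroblast clusters, cluster 6 had the highest sums of the mural markers, 1442 in Acta2GFP and 490 in PdgfraGFP. The study had removed cells that expressed neither *Pdgfra* nor *Pdgfrb* and cells with clear endothelial or immune signatures, so low immune sums were set in advance. The summed level of 8 immune markers, among them the macrophage genes *C1qa*, *C1qb* and *C1qc*, was at most 58.5, in Cspg4dsRED fibroblasts. Cspg4dsRED was also the highest line in mural cells. The summed level of the mesothelial markers *Msln* and *Upk3b* was 0 in the fibroblasts and mural cells of every line.

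**Figure D1:**
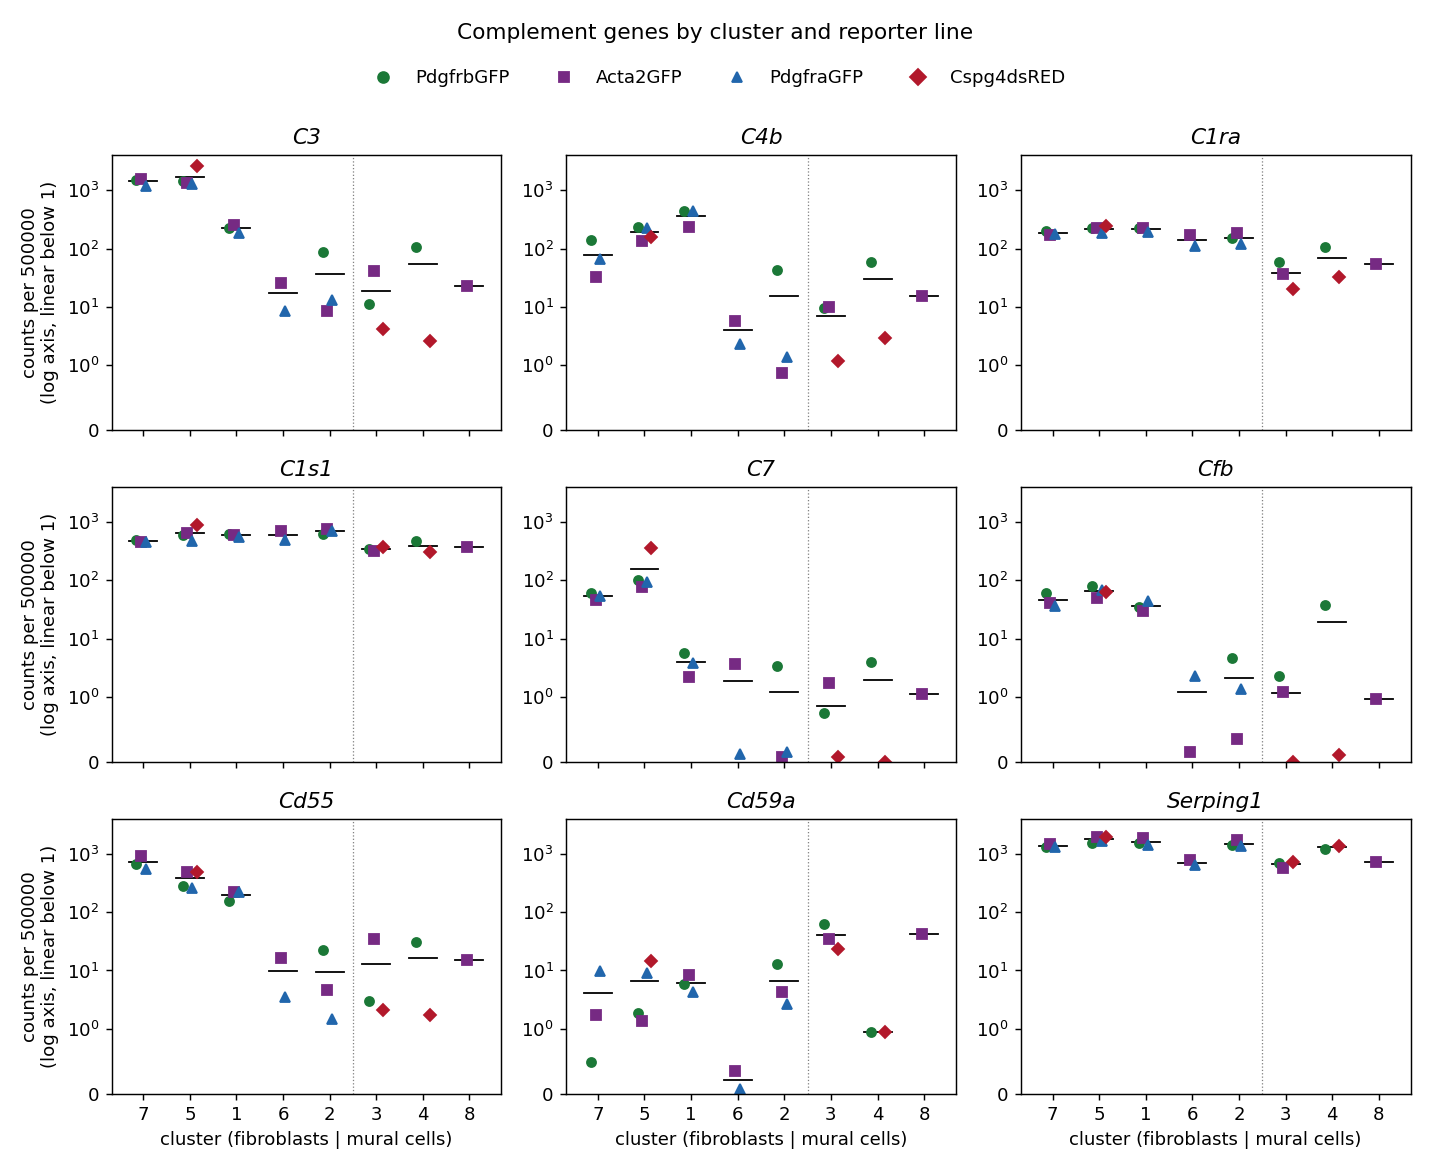
Levels of the 9 genes by cluster, in counts per 500000 on a log axis that is linear below 1, with 1 point per reporter line of at least 10 cells and a bar at the mean over lines. Fibroblast clusters stand left of the dotted line from base (7) to apex (2), mural clusters right of it. *C3* is near 1426 and 1655 in clusters 7 and 5 and at 54.7 or less in clusters 6, 2, 3, 4 and 8, whereas *Serping1* is at 661 or more in all 8.

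Fibroblasts and mural cells were compared over 4 and 3 line sums, which differ in their mix of clusters. In clusters 2 and 6 were 39 of the 571 PdgfrbGFP fibroblasts but 81 of the fewer PdgfraGFP ones. Of the 84 Acta2GFP mural cells, 52 were interstitial SMC and 3 were pericytes. The part of this mix in the levels by line and in their spread was not tested. Higher in fibroblasts were 5 genes, *C3*, *C4b*, *C1ra*, *C7* and *Cd55*, and *Cd59a* was lower, at an adjusted p under 0.05 (quasi-likelihood test of edgeR, adjusted over all genes by Benjamini-Hochberg). Across all 19173 genes tested, 6.57% were called in either direction. The median log2 fold change was 2.80 over the 9 genes and -0.03 over all genes. Per kilobase of exon, *Serping1* had the highest mean level in fibroblasts (658), followed by *C1s1* (194.8), *C3* (189.9), *Cd55* (72.5), *C1ra* (66.1), *C4b* (36.2), *C7* (26.95), *Cfb* (15.7) and *Cd59a* (2.78). Without Cspg4dsRED, which had 28 fibroblasts, *C7* was at 14.37 and *Cfb* at 14.56 per kilobase.

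These calls rested on 2 of the 4 lines. Without Acta2GFP none of the 9 genes was called, and without PdgfrbGFP only *C1ra* was (edgeR adjusted p = 0.0432). With the line as a replicate block, *C1ra* was called (edgeR adjusted p = 0.0409) and the edgeR adjusted p of the other 5 rose to between 0.0717 (*C3*) and 0.0931 (*Cd55*). In every one of these fits the 6 genes kept their direction.

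**Figure D2:**
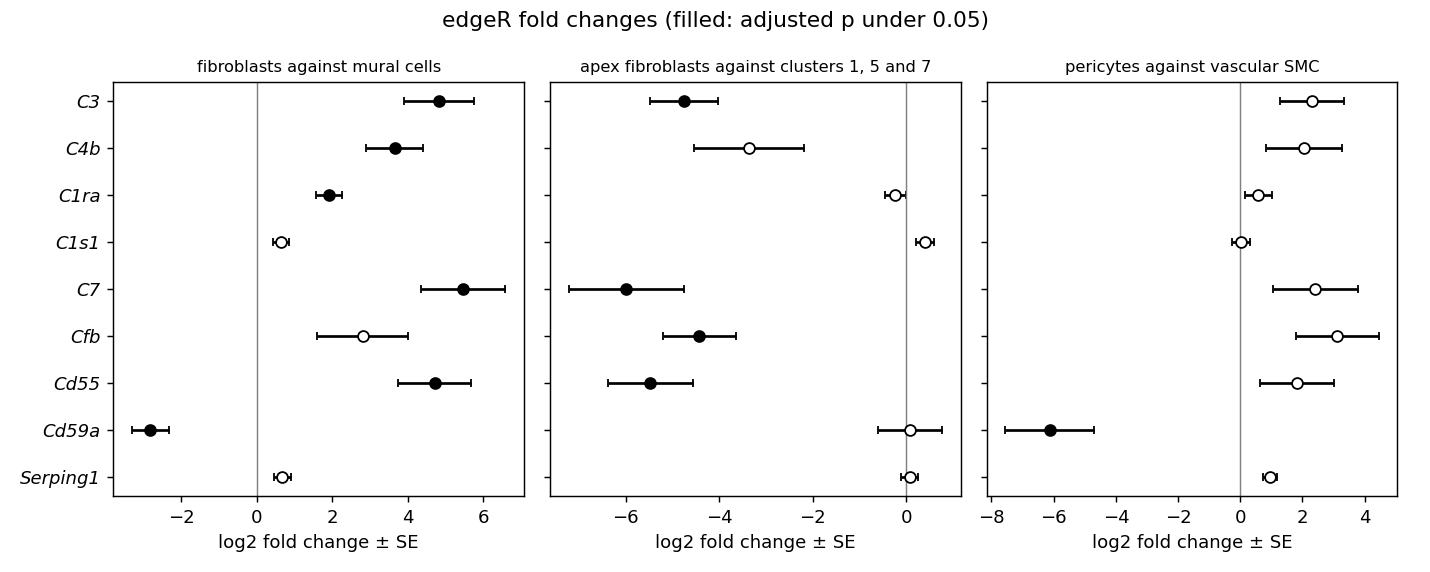
Fold changes (log2) of the 9 genes from edgeR with standard errors in 3 comparisons, filled where the adjusted p was under 0.05. In fibroblasts against mural cells 5 genes lie right of 0 and filled and *Cd59a* lies left, in apex fibroblasts 4 filled genes lie left, and in pericytes only *Cd59a* is filled.

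The classical pathway proteases were found in nearly all fibroblasts. *C1ra* (chr6:124512405-124523443, plus strand), encoding a C1r, had a level in fibroblasts of 219.5 (PdgfrbGFP), 206.8 (Acta2GFP), 160.7 (PdgfraGFP) and 201.7 (Cspg4dsRED), and of 84.5 in PdgfrbGFP, 47.9 in Acta2GFP and 26.4 in Cspg4dsRED mural cells. Every fibroblast line was above every mural line. The log2 fold change was 1.91 ± 0.35 (SE, edgeR adjusted p = 0.0110). Within fibroblasts its mean level ran from 140 ± 40.9 in cluster 6 (SD, n = 2 lines) to 220 ± 27.5 in cluster 5 (SD, n = 4 lines).

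*C1s1* (chr6:124530345-124542359, minus strand), encoding a C1s, was at 549 to 709 in the fibroblast lines and 340 to 420 in the mural lines. The groups did not overlap, but the log2 fold change of 0.64 ± 0.21 was not called (SE, edgeR adjusted p = 0.107). At 692 ± 67.9 in cluster 2 and 588 ± 37.4 in cluster 1 (SD, n = 3 lines each), the gene was not lower at the apex than in the middle. The other C1r and C1s genes of the mouse, *C1rb* and *C1s2*, had 0.181% and 0.0766% of the counts of *C1ra* (195649 over all cells) and *C1s1* (599608).

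*C4b* (chr17:34728380-34743882, minus strand), encoding C4, had its highest level in cluster 1. There it was 441.6 in PdgfrbGFP, 230 in Acta2GFP and 433.8 in PdgfraGFP. In cluster 5 it was 189.4 ± 51.2 (SD, n = 4 lines) and in cluster 7 78.7 ± 53.5 (SD, n = 3 lines). This order ran against that of *C3* and *Cd55*: on all 5 plates with at least 10 cells of clusters 7 and 1, *C4b* was lower in cluster 7. Between the classes it was higher in fibroblasts, at 126.8 to 294.1 by line against 2.12 to 36.7 in mural cells. The median fibroblast of a line was at 126.4 in PdgfrbGFP but at 4.48 to 12.2 in the other lines, so the mean was carried by part of the cells there. Its log2 fold change was 3.65 ± 0.76 (SE, edgeR adjusted p = 0.0198). Its near copy *C4a* had 0.147% of its 193409 counts over all cells, so few reads were assigned to the copy.

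*C3* (chr17:57203970-57228136, minus strand), the substrate of all pathways, had its highest levels in clusters 7 and 5. In cluster 7 it was at 1519 in PdgfrbGFP, 1563 in Acta2GFP and 1196 in PdgfraGFP, and in cluster 5 at 1454, 1323, 1270 and, in Cspg4dsRED, 2573. In cluster 1 it was at 227.9 in PdgfrbGFP, 256.2 in Acta2GFP and 185.7 in PdgfraGFP. All lines of clusters 5 and 7 were thus at least at 1196 and all of cluster 1 at most at 256.2. Fibroblasts as a whole were at 1691 in Cspg4dsRED, 862 in PdgfrbGFP, 855 in Acta2GFP and 499 in PdgfraGFP, against 64.3, 28.8 and 3.35 in the mural cells of PdgfrbGFP, Acta2GFP and Cspg4dsRED. The median fibroblast was at 17.8 in PdgfraGFP and at 437.5 to 887 in the other lines. The log2 fold change between the classes was 4.83 ± 0.94 (SE, edgeR adjusted p = 0.0151).

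*Cfb* (chr17:34856374-34862518, minus strand), encoding factor B, was low. Its level was 65.4 ± 12.7 in cluster 5 (SD, n = 4 lines), 45.7 ± 12.9 in cluster 7 and 36.5 ± 7.15 in cluster 1 (SD, n = 3 lines each). Fibroblast lines were at 34.7 to 54.3, and mural lines at 21.8 in PdgfrbGFP, 1.03 in Acta2GFP and 0.0523 in Cspg4dsRED, with a log2 fold change of 2.80 ± 1.21 that was not called (SE, edgeR adjusted p = 0.230). The annotation places *Gm20547* on the same strand over 2246 of its 2825 exon bases, and how reads over the shared bases were counted is not given in the sources used here. *Gm20547* was at 59.2 ± 27.3 in fibroblasts (SD, n = 4 lines), so the counts of *Cfb* are uncertain.

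*C7* (chr15:4988762-5063740, minus strand), a subunit of the membrane attack complex, was found mainly in clusters 5 and 7. In cluster 5 it was at 357.9 in Cspg4dsRED, 103.3 in PdgfrbGFP, 77.98 in Acta2GFP and 92.5 in PdgfraGFP, and in cluster 7 at 61.5, 46.3 and 53.5 in the last 3 of these lines. In cluster 1 it was at 5.77, 2.24 and 3.84. The lines of clusters 5 and 7 did not overlap those of cluster 1 or of any mural cluster. Fibroblasts exceeded mural cells by a log2 fold change of 5.46 ± 1.12 (SE, edgeR adjusted p = 0.0190). *C6*, encoding the subunit that C7 joins, was at most at 2.26 in the mean of any cluster.

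Among the regulators, *Serping1* (chr2:84765387-84775444, minus strand) had the highest level per kilobase of exon of the 9 genes in all 8 clusters. Its fibroblast level was 1760 in Acta2GFP, 1498 in Cspg4dsRED, 1484 in PdgfrbGFP and 1376 in PdgfraGFP, and it was at 985, 711 and 1060 in the mural cells of PdgfrbGFP, Acta2GFP and Cspg4dsRED. No lines overlapped, but the log2 fold change of 0.67 ± 0.23 was not called (SE, edgeR adjusted p = 0.121). All 1646 cells had at least 1 *Serping1* count. Its highest count in a cell, 2424, was 1.04 per exon base, and the highest such ratio of any gene of at least 500 exon bases was 1.96. The study's methods removed what they call doublets with samtools, and whether this capped high counts was not tested.

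*Cd55* (chr1:130439027-130462744, minus strand), a surface protein, had its highest levels at the base of the crypt. It was at 673 in PdgfrbGFP, 918 in Acta2GFP and 547 in PdgfraGFP in cluster 7, at 284.2, 496, 257.4 and, in Cspg4dsRED, 482.3 in cluster 5, and at 220.4 in Acta2GFP, 225.1 in PdgfraGFP and less in PdgfrbGFP in cluster 1. No line of cluster 5 reached the lowest of cluster 7, and none of cluster 1 the lowest of cluster 5. Fibroblasts were at 175.5 to 514 by line and mural cells at 1.89 to 21.5, a log2 fold change of 4.71 ± 0.96 (SE, edgeR adjusted p = 0.0182). The second *Cd55* gene, *Cd55b*, had 71 counts in all cells (0.0234%).

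*Cd59a* (chr2:104095801-104115354, plus strand) was the 1 member higher in mural cells. It was at 27.6 in PdgfrbGFP, 37.8 in Acta2GFP and 11.6 in Cspg4dsRED mural cells and at 3.88 to 6.90 in the fibroblast lines, which did not overlap. The log2 fold change was -2.83 ± 0.49 (SE, edgeR adjusted p = 0.00895). Its level was carried by the SMC, at 40.3 ± 20.3 in cluster 3 (SD, n = 3 lines) and 41.7 in the 1 line of cluster 8, against 0.954 in pericytes. A *Cd59a* count was found in 18.9% of fibroblasts and 35.7% of mural cells. Its near copy *Cd59b* had 1856 counts in all cells against 12631 (14.7%).

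**Figure D3:**
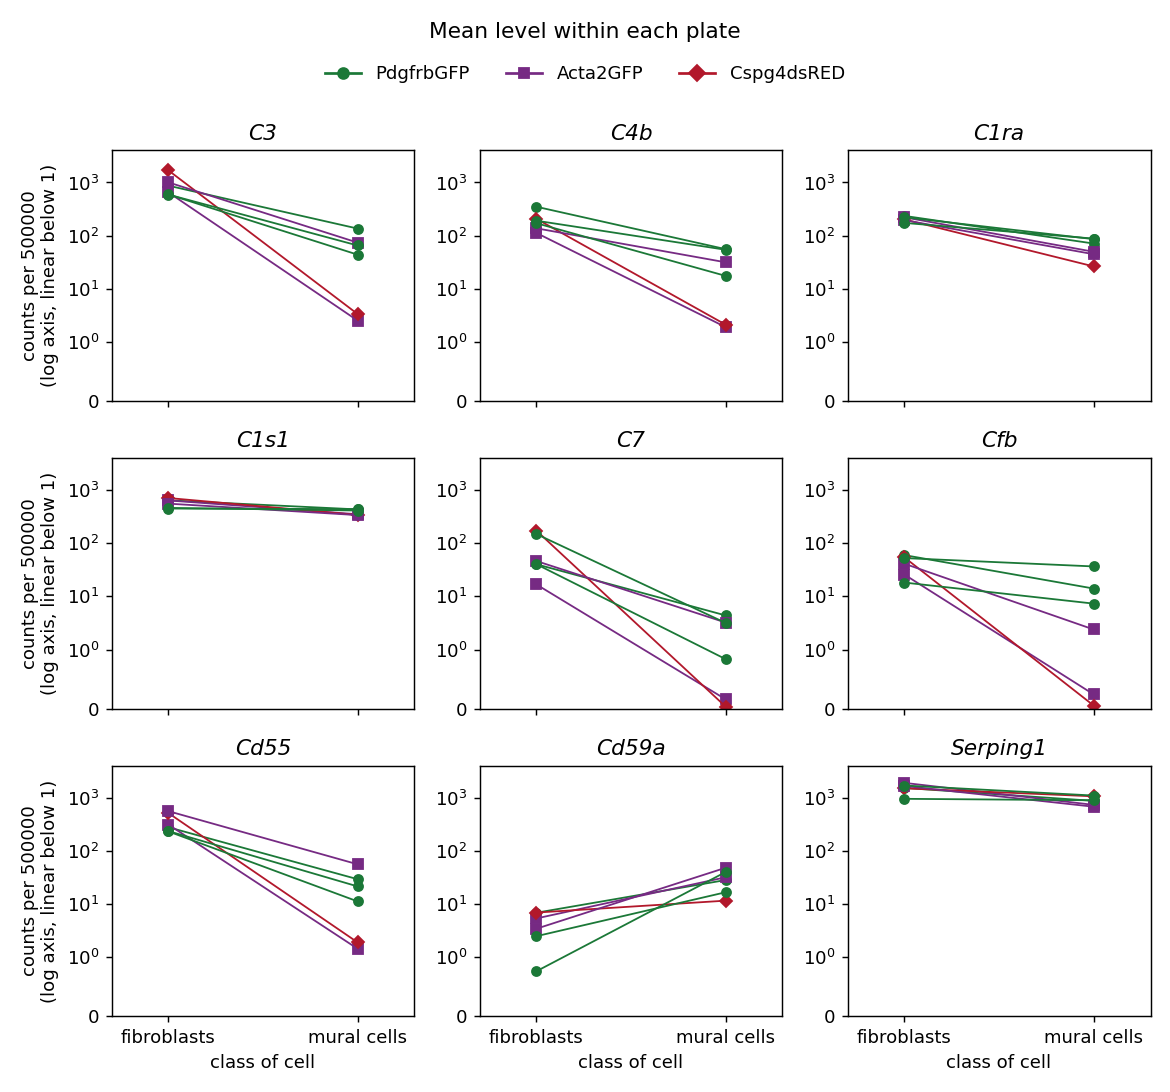
Mean level of each gene in the fibroblasts and the mural cells of the 6 plates with at least 10 cells of both, in counts per 500000 on a log axis that is linear below 1, coloured by reporter line. All 6 lines fall to the right in 8 genes and rise in *Cd59a*.

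Plates were examined as batches. On 6 of 6 plates with both classes, the means of *C3*, *C4b*, *C1ra*, *C1s1*, *C7*, *Cfb*, *Cd55* and *Serping1* were higher in fibroblasts and that of *Cd59a* was lower. The share of all genes that keep the same direction on every plate was not counted. *C3* was at 593 to 1691 in the fibroblasts of these plates and at 2.52 to 135.7 in their mural cells. With plates in place of lines as samples, 7 of the 9 genes were called, *Serping1* among them (edgeR adjusted p = 0.0476), against 16.1% of all genes in that fit, but plates of a line may share mice.

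A score of 16 genes induced by tissue dissociation, the mean of log2(count per 500000 + 1), was 7.69, 8.23 and 7.73 in clusters 1, 5 and 7 of 1 PdgfrbGFP plate. On the other plates it was 3.07 to 5.07, 4.52 to 6.69 and 3.98 to 5.92 in these clusters. The *C3* level of that plate, 230 and 1461 in clusters 1 and 5, lay among those of the other plates, and its 1796 in cluster 7 was the highest. The score also moved with the classes compared. It was higher in mural cells than in fibroblasts on 6 of 6 plates (5.17 to 7.48 against 4.11 to 5.92), and in cluster 2 than in cluster 1 on 5 of 5 (5.97 to 9.15 against 3.07 to 7.69) and than in clusters 5 and 7 on 4 of 4. In vascular SMC it was higher than in pericytes on 3 of 3 (6.72 to 7.41 against 4.13 to 4.30). The part of the score in the levels and differences was not tested.

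The apex of the crypt, cluster 2, was compared with clusters 1, 5 and 7 over 3 and 4 line sums. *C3*, *Cfb*, *C7* and *Cd55* were lower at the apex and no member was higher, against 7.26% of 15893 genes called in either direction. The median log2 fold change was -3.36 over the 9 genes and 0.0047 over all genes.

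*C3* was at 87.4 in PdgfrbGFP, 8.33 in Acta2GFP and 12.9 in PdgfraGFP at the apex, and at 773 to 1821 by line in clusters 1, 5 and 7. Its log2 fold change was -4.75 ± 0.72 (SE, edgeR adjusted p = 0.00478). *Cd55* was at 22.6, 4.67 and 1.49 in the same lines at the apex, and elsewhere at 282.4 in PdgfrbGFP, 509 in Acta2GFP, 553 in Cspg4dsRED and just below PdgfrbGFP in PdgfraGFP, a log2 fold change of -5.47 ± 0.91 (SE, edgeR adjusted p = 0.00783). Neither gene overlapped between the groups. *C7* was at 3.435, 0.0790 and 0.154 at the apex and at 37.9 to 186.5 elsewhere, with a log2 fold change of -5.99 ± 1.23 (SE, edgeR adjusted p = 0.0185). *Cfb* was at 4.685, 0.357 and 1.36 against 38.97 to 58.45, with a log2 fold change of -4.42 ± 0.78 (SE, edgeR adjusted p = 0.00996). These groups did not overlap either.

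*C4b* had the same direction without a call. It was at 43.7 in PdgfrbGFP but at 0.882 in Acta2GFP and 1.38 in PdgfraGFP at the apex, against 142.5 in Acta2GFP, 223.1 in Cspg4dsRED, 304.6 in PdgfraGFP and slightly more in PdgfrbGFP elsewhere, and the log2 fold change of -3.36 ± 1.18 had an edgeR adjusted p of 0.131. Without PdgfrbGFP it was -6.92 (edgeR adjusted p = 0.00165), and DESeq2 called it with all lines (adjusted p = 0.0126). Without Acta2GFP only *C3* of the 9 genes was called (edgeR adjusted p = 0.0402), and without PdgfraGFP *Cfb* was not (edgeR adjusted p = 0.0681).

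The proteases and C1 inhibitor were not called in this comparison. *C1ra*, *C1s1* and *Serping1* had log2 fold changes of -0.24 ± 0.22, 0.40 ± 0.20 and 0.07 ± 0.19 (SE), with edgeR adjusted p of 0.659, 0.315 and 0.891. *Cd59a* was at a log2 fold change of 0.08 ± 0.69 (SE, edgeR adjusted p = 0.972).

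Within the base and middle, cluster 7 was set against cluster 1 in the fit of all clusters. *C3* and *C7* had log2 fold changes of 2.79 ± 0.99 and 3.69 ± 1.31 (SE) but edgeR adjusted p of 0.356 and 0.357, and no member was called by edgeR, with 2 of the 9 at an unadjusted p under 0.05, nor by DESeq2. All genes gave 0.488% called of 21739, and 1966 of them were at an unadjusted p under 0.05. The median log2 fold change of all genes was -0.10 here, -0.18 for cluster 6 against cluster 2 and -0.19 for interstitial against vascular SMC. On 5 of 5 plates with both clusters *C3*, *C7* and *Cd55* were higher in cluster 7, and with plates in place of lines *C3* and *C7* were called (edgeR adjusted p = 0.0252 and 0.00648) against 2.61% of all genes in that fit. With the line as a replicate block 0.773% of genes were called in place of 0.488%, and no member was among them. *Cd55* had a log2 fold change of 1.65 ± 1.09 and *C4b* of -2.08 ± 1.13 (SE, edgeR adjusted p = 0.783 and 0.626).

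Cluster 6, which the study places next to the apex, had a summed level of the 3 apex markers *Tnc*, *Il1rl1* and *Bmp2* of 539, close to the 565 of cluster 1 and below the 2699 of cluster 2. *Serping1* was at 770 in Acta2GFP and 643 in PdgfraGFP in cluster 6, and at 1392 in PdgfrbGFP, 1707 in Acta2GFP and 1376 in PdgfraGFP in cluster 2. The mural markers moved with it, at 1442 and 490 in cluster 6 of Acta2GFP and PdgfraGFP against 311.1 and 101.9 in cluster 2 of these lines, and their part in the difference was not tested. The lines did not overlap. The log2 fold change of -0.94 ± 0.24 was not called (SE, edgeR adjusted p = 0.0655), but was without Cspg4dsRED (edgeR adjusted p = 0.0216). Cspg4dsRED had 0 cells in cluster 6 and 2 in cluster 2, so it gave neither cluster a sum. Leaving it out changed only what the fit took from other clusters. No member was called by edgeR, against 0.957% of all genes, and DESeq2 called *Cd59a*. At an unadjusted p under 0.05 in edgeR were 2 of the 9 members and 3144 of all 21739 genes. Cluster 6 held 45 cells in all.

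Between pericytes and vascular SMC edgeR called *Cd59a*. *Cd59a* was at 0.956 in PdgfrbGFP and 0.952 in Cspg4dsRED pericytes and at 62.7, 34.8 and 23.2 in the vascular SMC of PdgfrbGFP, Acta2GFP and Cspg4dsRED, with no overlap and a log2 fold change of -6.13 ± 1.43 (SE, edgeR adjusted p = 0.0467). Across all genes 0.819% were called. The call was lost without any 1 of PdgfrbGFP, Acta2GFP and Cspg4dsRED (edgeR adjusted p = 0.406, 0.220 and 0.257), with plates in place of lines (0.0696) and with at least 3 cells in a sum (0.110), and it held in 3 of 9 alternatives.

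*Serping1* was at 1226 in PdgfrbGFP and 1374 in Cspg4dsRED pericytes and at 696, 573 and 714 in the vascular SMC of PdgfrbGFP, Acta2GFP and Cspg4dsRED. Both pericyte lines were above all SMC lines. The log2 fold change was 0.94 ± 0.23 (SE, edgeR adjusted p = 0.0587). Interstitial SMC reached 10 cells in Acta2GFP alone, so their arm was 1 sum, assumed in the fit to vary like the other clusters. No member was called against vascular SMC by edgeR or DESeq2 and none was at an unadjusted p under 0.05, with 1.01% of all genes called.

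Low levels in mural and apex cells moved with the line and the plate. In PdgfrbGFP pericytes *C3* was at 106.9, *C4b* at 57.8 and *Cfb* at 37.9, against 2.55, 2.96 and 0.0998 in Cspg4dsRED pericytes. The median *C3* level of the same PdgfrbGFP pericytes was 3.33, so few cells carried the mean: over all pericytes, 95.1% of the summed *C3* level was in the top 10% of cells. The summed level of the 5 fibroblast markers was 1768 in PdgfrbGFP and 740 in Cspg4dsRED pericytes, and of these markers *Pdgfra* was at 31.64 and 0.4805 in the same order.

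The 2 Acta2GFP plates differed in the same way. *C3* in vascular SMC was at 0.708 on 1 plate and at 66.1 on the other, and in interstitial SMC at 3.14 and 89.4. The fibroblasts of these plates had *C3* at 652 and 1006. Across the mural cells of a plate, the *C3* level rose with the mean *C3* level of the wells in its row and column, with Spearman's rho of 0.229 to 0.699 on 5 plates, and *Cd55* did so with 0.0266 to 0.608. For *Serping1* rho was -0.302 to 0.215 and for *C1s1* -0.144 to 0.0646. These are descriptions across 31 to 90 mural cells of a plate, which share a library pool, and the part of neighbouring wells in the low levels was not tested. In the 29 vascular SMC of Acta2GFP, *C3* and *Cd55* also went with the summed fibroblast markers, with rho of 0.902 and 0.907, and in the pericytes of PdgfrbGFP with 0.235 and 0.263. In the 33 pericytes of Cspg4dsRED rho was -0.00213 and -0.0902, and in the other 3 sets of mural cells it was 0.318 to 0.516 for *C3* and 0.0420 to 0.411 for *Cd55*. The part of fibroblast RNA in these levels was not tested.

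**Figure D4:**
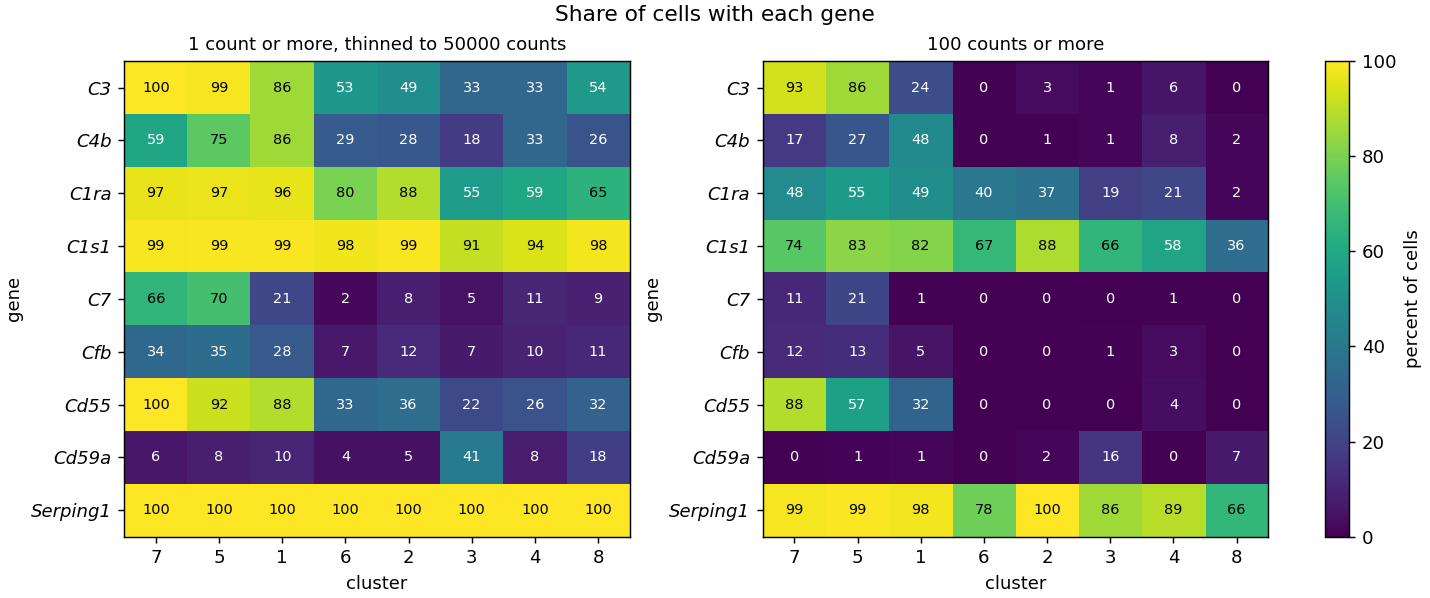
Percent of the cells of each cluster with at least 1 count of a gene after each cell was thinned to 50000 counts (left) and with at least 100 counts as deposited (right). *Serping1* is found in all cells, *C3* and *Cd55* reach 93.3% and 88.3% of cluster 7 at 100 counts, and *Cd59a* at 1 count peaks in cluster 3.

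At 100 counts or more, a count used in the study's own criteria, *C3* was in 93.3% of the cells of cluster 7 (86.7 to 94.7 by line), 85.9% of cluster 5 (76.9 to 89.1) and 23.6% of cluster 1 (14.9 to 30.9). In mural cells it was in 2.95%, and in 4.74% of those of PdgfrbGFP. *Cd55* gave 88.3% (86.7 to 88.2 in the 3 lines with at least 10 cells), 56.9% (46.2 to 64.1) and 31.7% (26.4 to 43.1) in clusters 7, 5 and 1. The cells of a line are not replicates and lines differ in depth, so shares are given with their range over lines and without a test.

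*Cfb* and *C7* reached 100 counts in few cells even in cluster 5, where their mean was highest, although at least 1 count was found in 61.2% of its cells for *Cfb* (35.4% after thinning) and 84.9% for *C7* (70.5%). There, *Cfb* reached 100 counts in 12.9% of cells (7.69 to 15.9 by line) and the top 10% of cells held 78.9% of its summed level, while *C7* reached it in 20.9% (12.5 to 30.8 by line) with 52.3% in the top 10%. *C3* had 24.6% in the top 10% there, and *Serping1* less. *C4b* in cluster 1 stood between them, with 27.6 to 60.6% of the cells of a line at 100 counts and 34.8% of the level in the top 10%.

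After thinning to 50000 counts, at least 1 *C3* count remained in 87.5% of fibroblasts and in 36.2% of mural cells, against 94.4% and 62.8% as deposited. The *C1s1* share was 93.4% in mural cells after thinning (80.3 to 97.6 by line). *Cd59a* was in 40.7% of vascular SMC (27.6 to 48.3 by line), 7.86% of pericytes (6.80 and 12.5) and 8.15% of fibroblasts (4.44 to 21.4).

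Over the 21 means by cluster and line, *C3* went with *Cd55* (Pearson's r = 0.968 on log2(level + 1)), *C7* (0.943) and *Cfb* (0.928), and *Cd59a* with none of the others (-0.404 to -0.0193). These points share lines and libraries and are a description. Within single clusters of a line correlations were weaker: over 8 sets of at least 50 cells in clusters 1, 5 and 7, *C3* with *Cd55* had a median Spearman's rho of 0.0749, *C3* with *C7* of 0.273 and *C3* with *Cfb* of 0.2585. The highest median of any pair of members was 0.283, for *C3* with *C4b*.

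Among 8259 genes with a mean level of at least 10, those most like *C3* were *Serpinf1* (r = 0.986), *Il33* (0.977) and *Col8a1* (0.976). For *C4b* they were *Hsd11b1* (0.963), *Lepr* (0.950) and *Adh1* (0.937), and for *C7* *Myoc* (0.965), *Prlr* (0.958) and *Flrt3* (0.954). *C1ra* was nearest to *Pcolce* (0.964), *Slc43a3* (0.938) and *Pdia6* (0.936). *Serping1* was nearest to *Rpn2* (0.902), *Icam1* (0.844) and *Angptl2* (0.842), and *Cd59a* to *Entpd1* (0.824), *Prkag2* (0.816) and *Cnst* (0.770).

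For 3 members a gene annotated over the same bases was among the nearest. *Gm16567*, on the opposite strand of *C1s1* over 576 of its 3129 exon bases, had r = 0.990 and was followed by *Pdia3* (0.868) and *Hmox1* (0.851). *Gm16083*, opposite *Cd55* over a small part of its 4853 exon bases, had r = 0.990 and was followed by *Cd34* (0.987) and *Serpinf1* (0.980). *Cfb* was nearest to *Clec11a* (0.961), *Gm20547* (0.955) and *Lepr* (0.951). No source used here says that strand entered the counting, and reads over the shared bases of these pairs cannot be told apart.

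Another 47 complement genes were examined as a list. Of them, 13 reached a mean level of 10 in some cluster and 3 had no count in any cell. In fibroblasts against mural cells 1 of the 31 tested was higher, *C5ar1*, and 3 were lower, *Vtn*, *Colec11* and *Cd93*. Of all genes tested there, 3.21% were called higher and 3.36% lower. At the apex 3 of 26 tested were higher, *C5ar1*, *C5ar2* and *C1rl*, and *C6* and *Masp1* were lower. Of all genes tested at the apex, 3.50% were called higher and 3.76% lower. Between clusters 7 and 1, clusters 6 and 2, and pericytes and vascular SMC, edgeR called none of the 33 tested. At an unadjusted p under 0.05 were 7, 6 and 7 of them, against 1966, 3144 and 2756 of all 21739 genes.

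**Figure D5:**
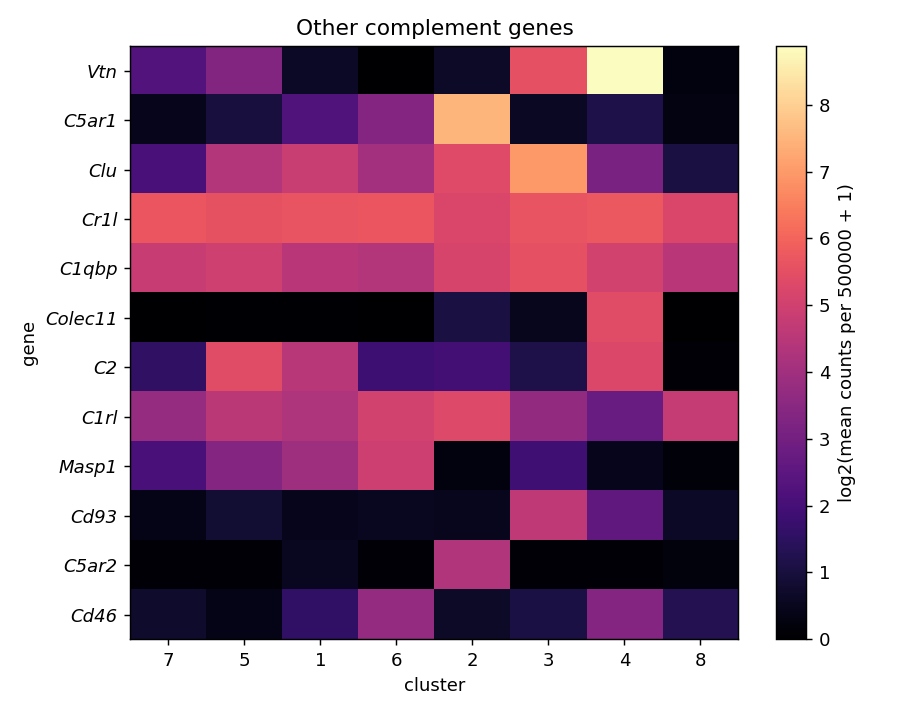
Mean level over lines of the other complement genes reported here that reached 10 in a cluster, as log2(mean counts per 500000 + 1), with clusters from the base (7) to the apex (2) and then the mural clusters 3, 4 and 8. *Vtn* and *Colec11* stand out in cluster 4 and *C5ar1* and *C5ar2* in cluster 2.

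Both C5a receptor genes were highest in cluster 2. *C5ar1*, encoding the receptor of the C5a fragment, was at 180 ± 40.2 in cluster 2 (SD, n = 3 lines) and at 9.52 or less in every other cluster, with a log2 fold change of 6.45 ± 0.98 at the apex (SE, edgeR adjusted p = 0.00478). *C5ar2*, encoding a second C5a receptor, was at 19.3 ± 14.5 in cluster 2 (SD, n = 3 lines), with 6.83 ± 1.22 (SE, edgeR adjusted p = 0.0104).

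*Masp1*, encoding a protease of the lectin pathway, was at 29.6 ± 19.5 in cluster 6 (SD, n = 2 lines) and 14.3 ± 1.93 in cluster 1 (SD, n = 3 lines), and at 0.205 in cluster 2.

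Pericytes held *Vtn*, encoding vitronectin, which binds the late complement proteins, at 357.8 and 583 by line, and *Colec11*, encoding a lectin pathway recognition protein, at 18.2 and 64.8. In fibroblasts both were at 10.5 or less in every line, with log2 fold changes of -5.77 ± 1.11 and -7.28 ± 1.63 against mural cells (SE, edgeR adjusted p = 0.0146 and 0.0277). *Clu*, encoding clusterin, was at 127.6 ± 41.7 in vascular SMC (SD, n = 3 lines), with medians over cells of 8.70 or less in each line. The median cell was at 0 in every line for *Colec11* in pericytes, for *C5ar2* in cluster 2 and for *Masp1* in clusters 6 and 1, so part of the cells carried these means. *Cr1l*, which encodes a membrane inhibitor of C3 cleavage, was at 36.4 to 52.9 in all 8 clusters.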

How the data were processed

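SmartSeq2 libraries of single colon cells were analysed. The authors trimmed adapters, mapped reads to GRCm38 with TopHat2 and Bowtie or Bowtie2, removed what they call doublets with samtools, and used featureCounts to count reads. Raw counts of 46517 genes and 92 spike-ins were deposited. All columns were used. Spike-ins (1.36% of counts) were left out. The members and lists were chosen with earlier results of these data known.

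For each class, the cells of a line were added up where there were 10 or more. Sums passed filterByExpr and TMM before the quasi-likelihood test of edgeR (threshold 0.05 after Benjamini-Hochberg adjustment over all genes). The class and apex comparisons were fitted on their own groups, the others in 1 fit of all clusters. The code was tested on simulated data. No doublet caller was run. Levels, thinned shares and correlations are as described with the results.

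Genes named are the 9 members, the listed complement genes called in a comparison, their paralogs, the 5 highest by level, and the 3 genes nearest each member. Of the listed genes, 1 is not reported here. Gene positions come from GENCODE vM21, 1-based.

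Sums of a line were checked for pairing, since they share a reporter line in the labels, by the correlation of their deviations from class means. It was 0.152 to 0.174 for fibroblasts and mural cells and 0.132 to 0.170 for clusters 7 and 1. These lines were taken as paired there, with no threshold stated. The reported fits still had no block, and the block fits of these comparisons are given beside them. It was 0.167 and 0.178 for pericytes and vascular SMC, with only 2 pairs, 0.0856 to 0.116 for the apex and 0.0381 and 0.0970 for clusters 6 and 2.

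Alternatives were DESeq2, the line as a block, leaving out the filter on low counts, plates in place of lines, at least 3 cells in a sum, each line left out, pooled counts and medians for levels, the last chosen after seeing the data. The tools were Python 3.11.15 (scipy 1.17.1, pandas 2.3.3, numpy 2.4.6) and R 4.3.3 (DESeq2 1.42.0, limma 3.58.1, edgeR 4.0.16).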

Additional observations from a re-analysis of the deposited data

Results flagged for a closer look

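A line was marked where its level stood apart from the other 3 by Dixon's 95% criterion, which was applied to 27 groups of 4 lines and marks about 1 in 20 by chance. It marked 5. The Cspg4dsRED line was high for *C3* in cluster 5 (2573), and for *C7* in cluster 5 (357.9), in clusters 1, 5 and 7 together (186.5) and in all fibroblasts (173.2). It had 13 cells in cluster 5 and 28 fibroblasts, on 1 plate. Without it the lines of cluster 5 were at 1270 to 1454 for *C3* and at 77.98 to 103.3 for *C7*. The Acta2GFP line was high for *Serping1* in clusters 1, 5 and 7 together (1788).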

How the results depend on the processing

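Genes called are given as a percent of the genes tested. For fibroblasts against mural cells it was 6.57% in the reported fit, 15.5% by DESeq2, 3.08% with the line as a replicate block, 16.1% with plates in place of lines and 1.81 to 5.81% with a line left out. Members called went from 6 to 1 with the block and to 0 to 6 with a line left out. For the apex, 7.26% became 15.3% by DESeq2, 12.1% with plates and 1.18 to 7.6% with a line left out, and 4 members became 1 to 5. For cluster 7 against cluster 1, 0.488% became 2.86% by DESeq2, 0.773% with the block, 2.61% with plates and 0.0709 to 0.813% with a line left out, and 2 members were called with plates in place of 0. For cluster 6 against cluster 2, 0.957% became 8.94% by DESeq2, 3.3% with plates, 0.635% with at least 3 cells and 0.0236 to 2.21% with a line left out, and 1 member was called by DESeq2 (*Cd59a*), 1 with the block, 1 with plates and 0 to 1 with a line left out, in these cases *Serping1*. For pericytes against vascular SMC, 0.819% became 5.57% by DESeq2, 2.7% with plates and 0.226 to 0.974% with a line left out, and 1 member (*Cd59a*) became 2 without a filter (with *Serping1*) and 0 to 1 with a line left out, while the 2 called with plates were *Serping1* and *Cfb* (edgeR adjusted p = 0.0119 and 0.0148) and *Cd59a* was lost. With at least 3 cells *Serping1* was called in its place (edgeR adjusted p = 0.00856). For interstitial against vascular SMC, 1.01% became 5.06% by DESeq2, 3.84% with plates, 1.92% with at least 3 cells and 0.485 to 1.64% with a line left out, without any member called, and the fit without Acta2GFP could not be had since it is the only line with enough of these cells. The causes were not tested.

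Log2 fold changes that turned direction were all short of the threshold in the reported fit and after the change. With a line left out, those at the apex ran from -0.51 to 0.49 for *Cd59a* and from -0.091 to 0.15 for *Serping1*, and without a filter they were -0.042 and -0.040. For cluster 6 against cluster 2 they ran from -3.32 to 0.075 for *C3*, -3.96 to 0.91 for *C4b*, -4.09 to 2.75 for *C7*, -3.58 to 0.12 for *Cfb* and -2.54 to 0.95 for *Cd55*. With at least 3 cells *C1ra* (0.037), *C7* (0.044) and *Cd55* (0.56) turned, by DESeq2 *C7* (0.11), with the block *C7* (0.67) and with plates *Cfb* (0.11). For pericytes against vascular SMC the values ran from -3.34 to 3.62 for *C3*, -1.89 to 3.49 for *C4b*, -0.46 to 0.99 for *C1ra*, -0.49 to 0.55 for *C1s1* (-0.0054 by DESeq2), -7.49 to 3.04 for *C7*, -2.81 to 3.57 for *Cfb* and -3.37 to 4.24 for *Cd55*, the lowest in each case without PdgfrbGFP. The -7.49 was fitted on pericytes without a *C7* count. For interstitial SMC they ran from -0.36 to 0.076 for *C1ra* (0.86 with at least 3 cells), -0.064 to 0.40 for *C7* and -1.12 to 0.75 for *Cfb* (0.28 with the block, 1.00 with plates), and *Cd59a* was at -0.59 with at least 3 cells.

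Few lines limited all tests, clusters 6 and 8 held 45 and 56 cells, and depth in Cspg4dsRED was lowest, with a median of 113721 counts per cell. Medians over cells in place of means, an alternative chosen after seeing the data, put fibroblasts at 455.6 for *C3*, 37.7 for *C4b*, 1.92 for *C7* and 0.945 for *Cfb*. With the block, where lines were not shown to pair, *Serping1* was called for cluster 6 against cluster 2 (edgeR adjusted p = 0.0147) and for pericytes against vascular SMC (edgeR adjusted p = 0.0129), where *Cd59a* was not (edgeR adjusted p = 0.0648). The block changed no other call of a member beyond those given with the results.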
